A study of Homo sapiens with 18 samples.

Results

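The genes described are the zinc-dependent proteases that cut extracellular matrix and cell-surface proteins, and their tissue inhibitors: the matrix metalloproteinases (MMP), the ADAM and ADAMTS proteases and the TIMP inhibitors. They were taken as all genes of the deposited table whose symbol is MMP, ADAM or ADAMTS followed by a number, or TIMP followed by a digit, which gave 51 of 21944 genes, with 14 ADAM, 19 ADAMTS, 14 MMP and 4 TIMP genes. GENCODE v44 annotates 65 protein-coding genes with such symbols, and the other 14 were not analysed here. The study is bulk RNA sequencing of human pancreatic progenitors made from embryonic stem cells, which were detached at day 19 of differentiation and reseeded on fibronectin (FN), an adhesive matrix protein, or on laminin-411 (LN411), a laminin to which cells adhere weakly. Cells on each coating were collected 3, 6 or 24 h later, which gives 6 groups of 3 samples, or 18 samples. The labels give no knockout or drug for any group, and all cells were detached with accutase before reseeding. The labels name the HUES4 line as the source but give SA121-derived NGN3-GFP cells in the growth protocol, and the study describes these libraries as made from its NGN3-GFP line, so the labels and the study differ in part.

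The table gives a single expression level per gene, the mean normalized count, which is the authors' mean of read counts over all 18 samples after scaling each library by its size factor. It carries no spread between replicates, and no values of single samples were used. The table's other values are the authors' own comparisons of LN411 with FN, which were left aside. The question behind the design, which genes respond to LN411, was thus not addressed here by choice of the values used: the levels show how strongly each gene was expressed over both matrices and all times together, and no difference between LN411 and FN or between times is given. A mean over both matrices can also hide a gene that was high on only 1 of them. A level of 1 gene differs from that of another partly because longer transcripts give more reads, so levels of different genes were compared as mean normalized count per kb of the longest annotated transcript. No order of genes below was tested, since the values have no error.

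MMPs share a propeptide that keeps the enzyme latent and a catalytic domain that holds a zinc ion. Most are secreted, while the membrane-type MMPs stay anchored to the cell surface. ADAM proteins are membrane proteins, of which some shed growth factors, receptors and adhesion molecules from the surface and others have lost the catalytic residues. ADAMTS proteases are secreted, bind matrix through thrombospondin repeats and cut proteoglycans, procollagens and other matrix proteins. TIMPs bind the active site of MMPs and of some ADAM and ADAMTS proteases. In the developing pancreas, remodelling of the matrix accompanies branching and the migration of endocrine cells.

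The progenitor label was checked against markers. Of 11 markers of pancreatic progenitors, all were in the table and 10 had a mean normalized count of at least 1000, including *PDX1* at 12933, *SOX9* at 20672 and *EPCAM* at 69597. The exception was *PTF1A*, a factor of multipotent and acinar progenitors, at 12.5. Of 5 endothelial markers, the highest was *TIE1* at 167 and *CDH5*, which defines endothelium, was at 5.12. Of 5 blood markers, 2 were in the table, at 48.3 and 195. Of 8 mesenchymal markers, 7 were in the table, with *COL1A2* at 45110, *COL1A1* at 4091, *PDGFRA* at 868, *COL3A1* at 320, *LUM* at 235, *PDGFRB* at 114 and *THY1* at 11.5. The part of mesenchymal cells in the levels of the protease genes was not tested. Of 4 pluripotency markers, 2 were in the table, *LIN28A* at 10333 and *ZFP42* at 564, and *POU5F1* and *NANOG* were not analysed here. In such bulk samples, few cells with much of an RNA and many cells with little of it cannot be told apart.

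As a group, the 51 genes ranged widely. Of these, 19 had a mean normalized count of at least 1000, 17 lay between 101 and 983, and 15 lay between 6.75 and 67.1. At least 100 was reached by 36 genes, or 70.6%, against 59.8% of all genes in the table and 79.0% of the 15355 protein-coding genes in it. At least 1000 was reached by 37.3% of the members, against 36.3% of all genes and 51.3% of protein-coding genes. The median of the 51 genes was 539, against 297 over all genes and 1077 over protein-coding genes. In mean normalized count, the median member thus stood above the median gene and below the median protein-coding gene. Per kb it stood below both, at 84.3 against 99.6 over all genes and 273 over protein-coding genes. The mean normalized counts of genes listed at all 3 times also put the members lower, with a median of 606 against 625 for all genes. The sum over the 51 genes was 0.289% of the sum over all genes. Of the 51 genes, 49 were listed at all 3 times. *ADAMTS8*, at 8.35, was listed only at 6 and 24 h, and *ADAM29*, at 6.75, only at 24 h.

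**Figure D1:**
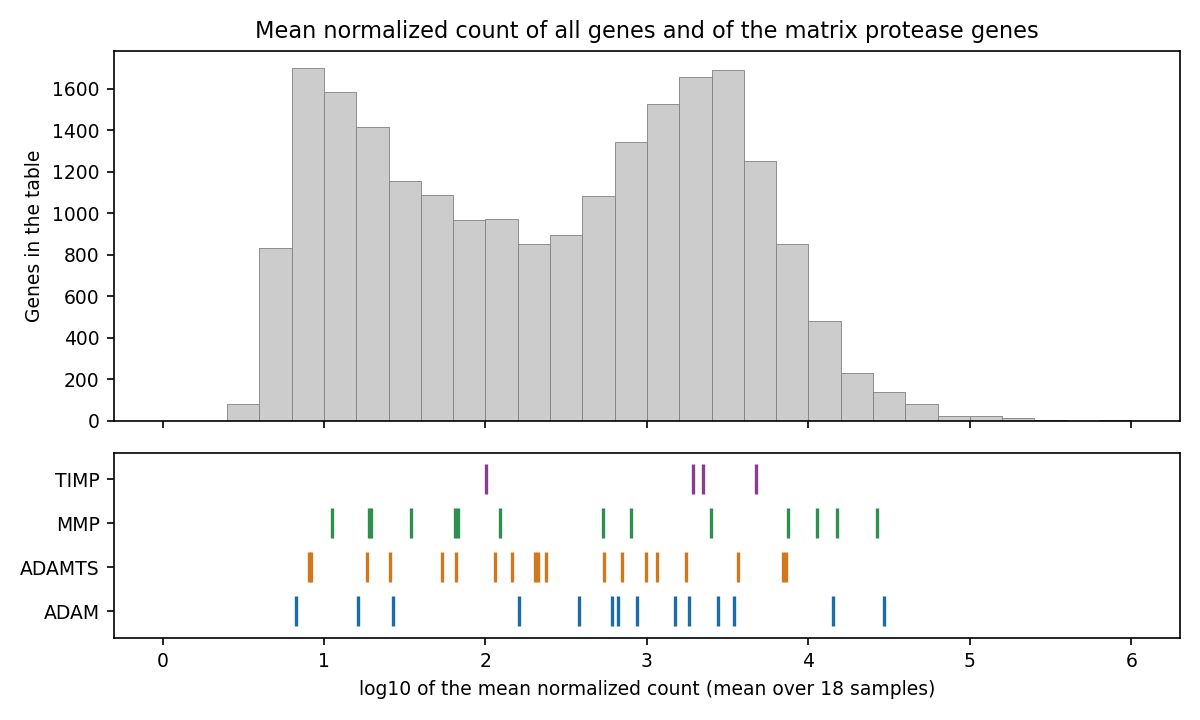
The upper panel counts the genes of the table (y axis) by the log10 of their mean normalized count (x axis), and each tick in the lower panel is 1 gene of the family named at the left. The 51 genes spread over both peaks of the distribution, from *ADAM29* at 6.75 to *ADAM10* at 29343.

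Per kb, a few genes held most of the group's expression. *MMP14* alone made up 20.7% of the summed level per kb of the 51 genes, and the 5 highest genes, *MMP14*, *MMP1*, *MMP15*, *ADAM10* and *TIMP1*, made up 63.0%. The 10 highest made up 83.7%. The 14 MMP genes together made up 56.5% of the sum, the 14 ADAM genes 20.1%, the 19 ADAMTS genes 11.9% and the 4 TIMP genes 11.5%. The MMP share was the highest of the 4 families with each length measure tried and without any division by length. The order of the other families was not kept: with coding length in place of transcript length, TIMP genes stood at 17.3% and ADAMTS genes at 7.02%. With coding length, *TIMP2* also took the place of *TIMP1* among the 5 highest genes, which were the same with merged exons.

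**Figure D2:**
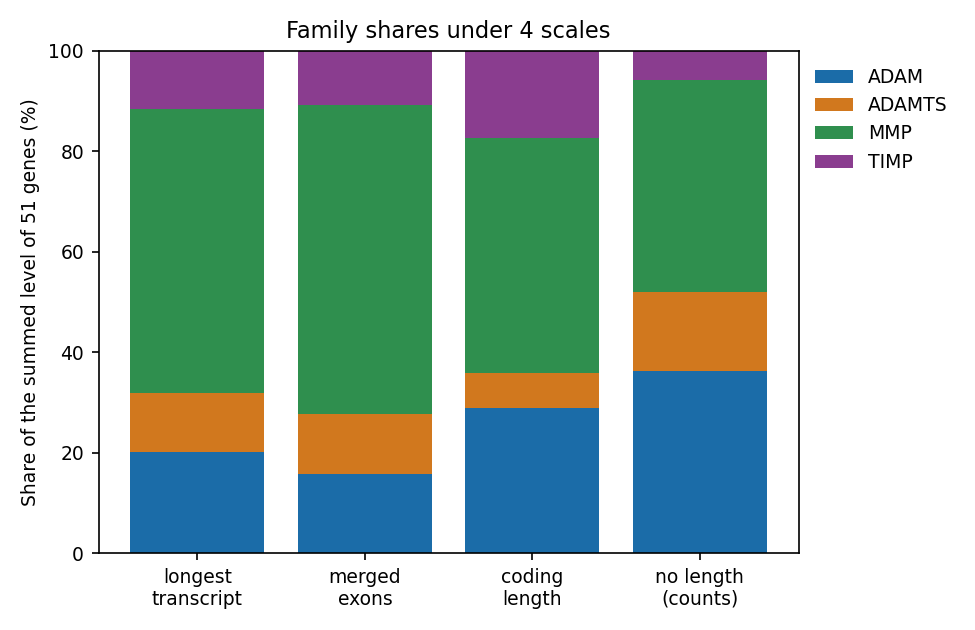
Each bar splits the summed level of the 51 genes into the shares of the 4 families (y axis, percent), using the longest transcript, merged exons or coding length as gene length, or no length at all (x axis). The MMP share lies between 42.1% and 61.5% in all 4 bars, whereas the TIMP share moves between 5.87% and 17.3%.

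The membrane-type *MMP14* stood highest in the MMP family per kb, and *MMP1* stood between it and the membrane-type *MMP15* under each length. *MMP14* (ENSG00000157227), which encodes the membrane-type collagenase that also activates pro-MMP2, had a mean normalized count of 26594 and 6904 per kb, above 98.5% of the genes with a length. *MMP15*, a relative of *MMP14* at the cell surface, had 15097 and 3717 per kb, and *MMP16* had 7520 and 651 per kb. The other membrane-type genes were lower, with 122 per kb for *MMP24* and 14.6 and 14.4 per kb for the GPI-anchored *MMP25* and *MMP17*. The 6 membrane-type genes made up 60.4% of the MMP sum per kb, with *MMP14* alone at 36.5% and *MMP15* at 19.7%. *MMP24* shares 806 exonic bases with *MMP24OS* and *MMP25* shares 1454 with *MMP25-AS1*, both on the opposite strand. The strand setting of the counting is not given in the sources used here. It is thus unknown how reads from the shared bases were counted, or whether they were counted at all.

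The promoters of the leading membrane-type genes differed in base composition and are shown for that. Each is taken from the 250 bases before the start annotated by RefSeq on GRCh38.p14, from 5′ to 3′, without bases that GENCODE v44 places inside the gene, and capitals mark each CG dinucleotide, which is frequent in promoters of broadly expressed genes. The *MMP14* stretch (chr14:22836335-22836559, plus strand) has 225 bases and 6 CG dinucleotides, and the *MMP15* stretch (chr16:58025504-58025753, plus strand) has 250 bases and 31.

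MMP14: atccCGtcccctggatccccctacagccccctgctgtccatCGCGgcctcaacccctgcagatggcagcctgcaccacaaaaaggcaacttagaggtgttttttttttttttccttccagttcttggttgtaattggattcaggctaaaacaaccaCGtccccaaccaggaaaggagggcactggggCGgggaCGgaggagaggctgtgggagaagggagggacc

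MMP15: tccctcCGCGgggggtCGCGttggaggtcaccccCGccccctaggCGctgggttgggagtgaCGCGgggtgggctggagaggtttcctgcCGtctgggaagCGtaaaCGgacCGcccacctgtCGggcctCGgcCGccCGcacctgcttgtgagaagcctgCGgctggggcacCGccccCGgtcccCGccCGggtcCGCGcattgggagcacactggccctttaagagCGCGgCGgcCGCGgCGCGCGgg

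The gelatinases were far lower. *MMP2*, the gelatinase that *MMP14* activates, had a mean normalized count of 124 and 35.2 per kb, and *MMP9* had 11.2 and 4.79 per kb. The level per kb of *MMP14* was 196 times that of *MMP2*, and 219 to 244 times with merged exons or coding length. Both gelatinases together made up 0.212% of the MMP sum.

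*MMP1*, the interstitial collagenase, had a mean normalized count of 11359 and 5763 per kb. This was the second highest level per kb of all 51 genes with transcript length and with merged exons. With coding length, *ADAM10* at 13076 per kb stood above *MMP1* at 8073. *MMP10*, a stromelysin that cuts many matrix proteins, had 2483 and 1412 per kb. *MMP12*, the elastase of macrophages, had 67.1 and 36.8 per kb. These genes lie in a cluster on chromosome 11 of GRCh38 (chr11:102520508-102955732), in which 9 MMP genes are annotated over 435 kb, and the other 6 were not analysed here. Within the cluster, *MMP1* (chr11:102789401-102798160) and *MMP10* (chr11:102770502-102780628) are neighbours on the minus strand, and *MMP1* stood 4.08 times above *MMP10* and 156 times above *MMP12* per kb. *MMP1* shares 223 exonic bases with the pseudogene *WTAPP1* on the opposite strand.

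The *MMP10* promoter (250 bases, chr11:102780629-102780878, minus strand, same source) is shown because it held both motifs searched. Capitals mark a match to the AP-1 motif (TGANTCA, searched on both strands) at 67 to 61 bases before the start and a TATA box (TATAAA, searched on both strands) at 31 to 26 bases before it.

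MMP10: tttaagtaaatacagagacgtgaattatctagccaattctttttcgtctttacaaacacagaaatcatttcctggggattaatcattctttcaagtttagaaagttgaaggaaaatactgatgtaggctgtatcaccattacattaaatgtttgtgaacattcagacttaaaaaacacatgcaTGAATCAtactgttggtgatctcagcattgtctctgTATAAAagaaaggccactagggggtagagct

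RefSeq promoters were matched by symbol for 31 of the 51 genes. Genes without a match, *MMP1*, *ADAM9* and *TIMP2* among them, were not searched. Of the 31 promoters, 2 held the AP-1 motif, those of *MMP10* and *ADAMTS12*, or 6.45% against 6.74% of 27305 RefSeq promoters of this length. TATAAA was found in 2, those of *MMP10* and *MMP21*, or 6.45% against 11.3%.

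**Figure D3:**
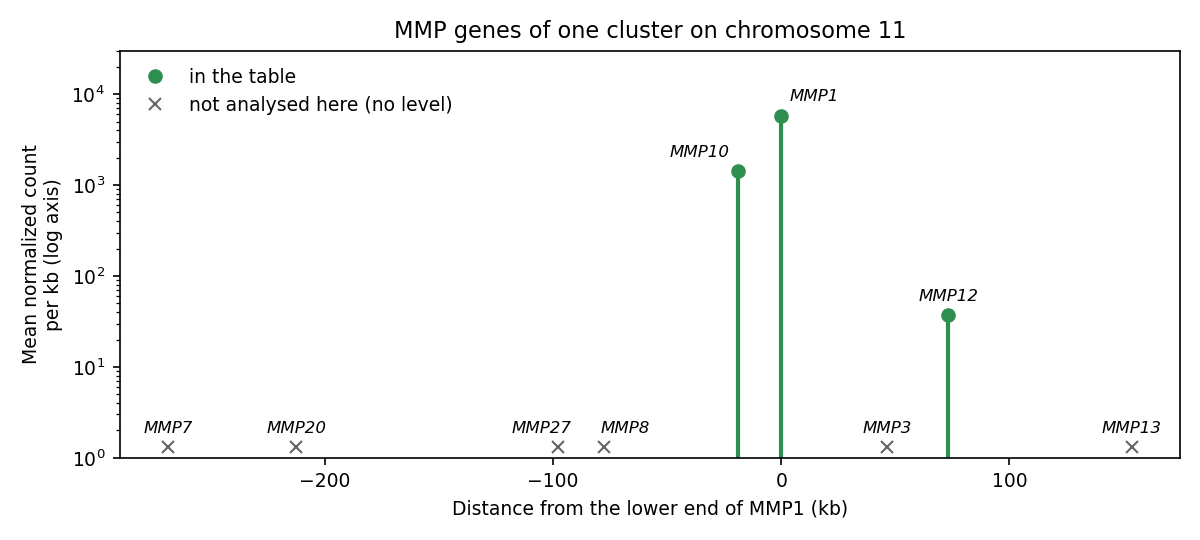
Level per kb (y axis, log scale) of the MMP genes of the chromosome 11 cluster against their distance from the lower end of *MMP1* (x axis, kb); crosses at the bottom mark genes with no level. *MMP1* at 5763 and *MMP10* at 1412 stand next to each other, and *MMP12* is at 36.8.

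Of the remaining MMP genes, *MMP11*, stromelysin-3, was at 797 (208 per kb), whereas *MMP19* and *MMP21* were at 19.6 and 19.1. The lowest MMP gene per kb was *MMP9*. On the opposite strand, *MMP9* shares 430 exonic bases with *SLC12A5-AS1* and *MMP19* shares 821 with *TMEM198B*. In all, 8 of 14 MMP genes reached a mean normalized count of 100.

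Among the ADAM genes, the sheddases *ADAM10* and *ADAM9* led under each length. *ADAM10* (ENSG00000137845), which cuts Notch receptors and cadherins, had a mean normalized count of 29343, the highest of the 51 genes, and 2630 per kb. *ADAM9*, a sheddase that also binds integrins, had 14137 and 1997 per kb, and *ADAM17*, which releases TNF and EGF receptor ligands, had 3446 and 524 per kb. *ADAM10* thus stood 5.02 times above *ADAM17* per kb, and 8.51 and 9.38 times with merged exons and coding length. *ADAM10* made up 39.2% of the ADAM sum and *ADAM9* 29.7%. *ADAM17* shares 1645 exonic bases with *IAH1* on the opposite strand, and *ADAM15* shares 306 with *DCST1* on the same strand.

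The *ADAM10* promoter is shown as another rich in CG dinucleotides. The stretch outside the gene (chr15:58749792-58749957, minus strand) has 166 bases and 21 CG dinucleotides, in capitals.

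ADAM10: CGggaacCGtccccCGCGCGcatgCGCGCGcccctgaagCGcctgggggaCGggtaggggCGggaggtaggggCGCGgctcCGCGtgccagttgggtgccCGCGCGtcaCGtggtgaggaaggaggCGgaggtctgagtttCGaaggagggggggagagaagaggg

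Lower in the family with transcript length stood *ADAM19*, a meltrin, at 2761 (426 per kb). Below it were *ADAM15*, which carries an integrin-binding motif, at 1811 (402 per kb), and *ADAM28*, known from lymphocytes, at 1484 (210 per kb). With merged exons, *ADAM19* and *ADAM15*, at 358 and 275 per kb, stood above *ADAM17* at 216. *ADAM8*, known from leukocytes, was at 863 and *ADAM12*, another meltrin, at 377. The 5 listed members without a working catalytic site were *ADAM23*, *ADAM22*, *ADAM11*, *ADAM32* and *ADAM29*, which made up 3.11% of the ADAM sum. Of these, *ADAM23* and *ADAM22*, receptors for LGI proteins at synapses, were at 659 and 606, *ADAM11* was at 162 and the others were at 26.8 or lower. The lowest ADAM gene per kb was *ADAM29*, whose known expression is in the testis. *ADAM21*, another testis gene, was at 16.3, and its near copy *ADAM21P1* was at 11.9, so that reads could have been split between them.

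The ADAMTS genes held no member as high as the leading MMP and ADAM genes. *ADAMTS7*, which cuts the cartilage protein COMP, had a mean normalized count of 6977 and 1264 per kb, and its relative *ADAMTS12* had 702 and 81.9 per kb. The pseudogene *ADAMTS7P1* was at 17.9. *ADAMTS9*, a protease of versican and aggrecan, had 7269 and 953 per kb, and *ADAMTS1*, which cuts the same proteoglycans, had 3665 and 630 per kb. *ADAMTS7* and *ADAMTS9* lay within a factor of 1.33 of each other per kb, and *ADAMTS1* lay 1.51 times below *ADAMTS9* with transcript length and level with it with coding length (a factor of 1.01).

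The proteoglycan-cutting ADAMTS proteases differed widely. Of the 7 listed genes, *ADAMTS9*, *ADAMTS1* and *ADAMTS15* (983, 164 per kb) had the highest mean normalized counts. *ADAMTS5* followed at 211, then *ADAMTS4*, *ADAMTS20* and *ADAMTS8* at 25.5, 18.4 and 8.35. *ADAMTS4* and *ADAMTS5*, the main aggrecanases of cartilage, were at 2.61 and 21.9 per kb. With transcript length, *ADAMTS20* at 2.90 per kb stood above *ADAMTS4*, and *ADAMTS8* was at 2.30. With coding length, *ADAMTS20* was at 3.21 and *ADAMTS4* at 10.1. *ADAMTS20*, the closest relative of *ADAMTS9*, stood 329 times below it per kb. The 7 genes made up 44.8% of the ADAMTS sum.

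The procollagen-processing members were low. *ADAMTS3* was at 147, *ADAMTS14* at 53.5 and *ADAMTS2*, the lowest of all 51 genes per kb, at 8.05 (1.19 per kb), and together they made up 0.867% of the ADAMTS sum. The collagen genes *COL1A2* and *COL1A1* were at 45110 and 4091 in the same samples. Among members with less well known substrates, *ADAMTS19* was at 1758 and *ADAMTS16* at 1158, whereas their closest relatives *ADAMTS17* and *ADAMTS18* were at 66.0 and 203. *ADAMTS10*, which binds fibrillin microfibrils, was at 539 and its relative *ADAMTS6* at 115. *ADAMTS13*, which cuts von Willebrand factor, was at 236.

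Of the 4 inhibitors, 3 had a mean normalized count over 1000. *TIMP1* (ENSG00000102265), a secreted inhibitor of most MMPs, had a mean normalized count of 2232 and 2038 per kb. *TIMP2*, which also takes part in the activation of pro-MMP2 by *MMP14*, had 4746 and 1300 per kb. It shares 224 exonic bases with *CEP295NL* on the same strand. *TIMP3*, the inhibitor that binds matrix and also blocks ADAM17 and ADAMTS proteases, had 1930 and 420 per kb, and *TIMP4* had 101 and 84.3 per kb. *TIMP4* was the lowest under each length. The order of the others depended on the length, as *TIMP1* stood 1.57 times above *TIMP2* with transcript length, whereas with coding length *TIMP2* was at 7191 per kb and *TIMP1* at 3594. Per kb, *MMP14* was 5.31 times above *TIMP2* with transcript length, 7.53 times with merged exons and 2.12 times with coding length. *MMP1* was 2.83 times above *TIMP1* with transcript length, and 2.69 and 2.25 times with the other lengths.

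**Figure D4:**
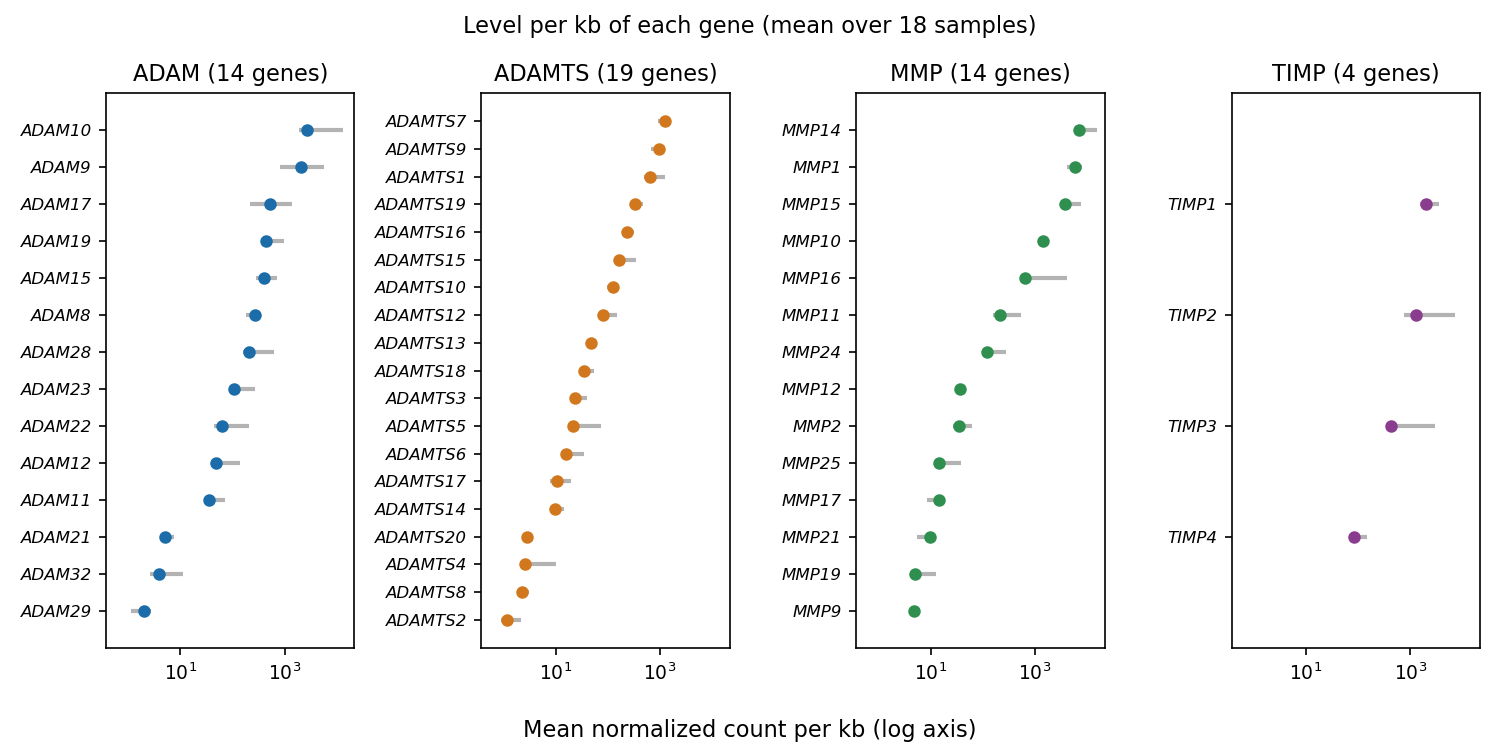
Each point is the mean normalized count per kb of 1 gene (x axis, log scale), in 1 panel per family, and the grey line runs over the values with the longest transcript, merged exons and coding length. *MMP14*, *MMP1* and *MMP15* stand highest, the lowest is *ADAMTS2* at 1.19, and the lines of *ADAM10*, *MMP16*, *TIMP2* and *TIMP3* are long. These lines show the effect of gene length only and are no error bars.

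The genes are spread over 20 chromosomes. Chromosome 5 holds 6 of them, *ADAM19*, *ADAMTS2*, *ADAMTS6*, *ADAMTS12*, *ADAMTS16* and *ADAMTS19*, which ranged from 8.05 to 2761. On GRCh38, *MMP14* lies at chr14:22836560-22849041 in GENCODE v44, *MMP15* on chromosome 16, *ADAM10* on chromosome 15, *TIMP1* on the X chromosome and *TIMP2* on chromosome 17. *ADAMTS1* and *ADAMTS5* both lie on chromosome 21 and were at 3665 and 211.

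Over the whole 250 bases, the ratio of CG dinucleotides to the number that the C and G content would give was 0.348 for *MMP14*, 0.889 for *MMP15* and 1.02 for *ADAM10*. A ratio of at least 0.6 was found for 21 of the 31 promoters, or 67.7%, against 46.6% of all 27305, which include those of non-coding genes. The median mean normalized count was 659 for these 21 genes and 176 for the other 10, and both sets held genes over 1000, with 7 of 21 and 4 of 10. *MMP14* and *TIMP1* were among the 10. This is a description over the matched promoters and was not tested.

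Other genes of matrix proteolysis were taken from a list of 43 genes, of which 41 were in the table. Of these, 32, or 78.0%, had a mean normalized count of at least 100, against 79.0% of protein-coding genes and 59.8% of all genes. Furin-type proteases, which activate membrane-type MMPs and many ADAM and ADAMTS precursors, were led by *FURIN* at 9343 (2150 per kb), with *PCSK7* at 2129, *PCSK5* at 1142 and *PCSK6* at 155. *SPOCK2*, a proteoglycan of the testican family, was at 41465 (7782 per kb), and *A2M*, a protease trap, was at 23695 (5140 per kb). *RECK*, a membrane inhibitor of MMPs, was at 445 (101 per kb). *BSG*, a surface protein also known as an inducer of MMPs, was at 63960.

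Partners of the sheddases were also measured. Of the 6 tetraspanins that escort *ADAM10*, *TSPAN15* was highest per kb (2652, mean normalized count 4516). It was followed by *TSPAN17* (718), *TSPAN14* (440), *TSPAN33* (331) and *TSPAN5* (170), while *TSPAN10* was at 23.1 per kb. In mean normalized count, *TSPAN14* was the highest of the 6, at 7140. Only transcript length was used for these genes. The iRhoms *RHBDF1* and *RHBDF2*, which carry *ADAM17* to the surface, were at 473 and 211 per kb.

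In the plasminogen system, the activator *PLAU* was at 1885 and *PLAT* at 85.0, and the receptor *PLAUR* at 258. The inhibitors *SERPINF2* and *SERPINE2* were at 4524 and 4479 (1981 and 748 per kb). *BMP1*, the main procollagen C-proteinase, was at 3804, whereas its relatives *TLL1* and *TLL2* were at 72.5 and 206. Of the cathepsins, *CTSB* was at 44075 and *CTSL* at 4727, and *CTSK* and *CTSS*, enzymes of osteoclasts and of antigen-presenting cells, were at 122 and 10.5. The 6 listed ADAMTS-like genes, whose proteins resemble ADAMTS proteases without the catalytic domain, lay between 56.5 and 697.

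**Figure D5:**
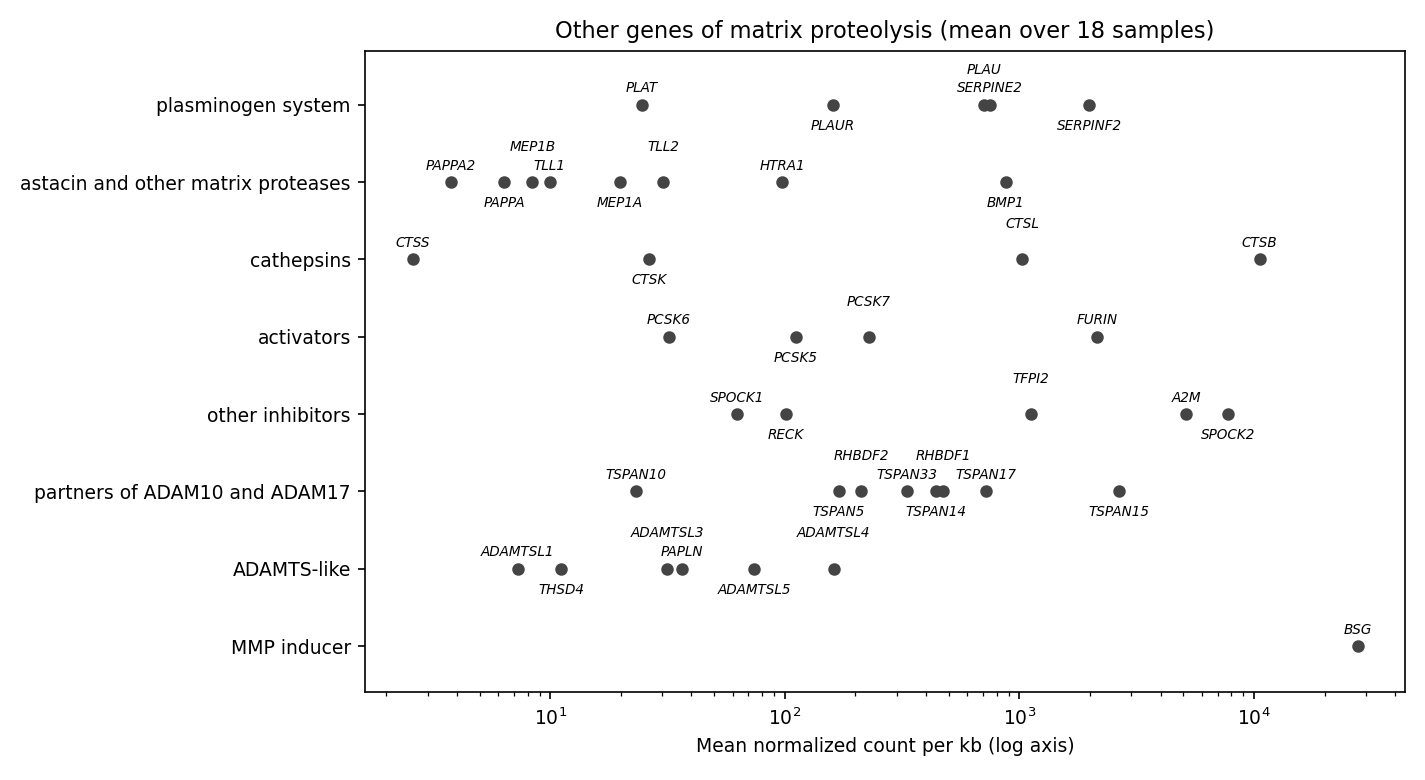
Level per kb (x axis, log scale) of the 41 listed genes in 8 groups of matrix proteolysis (rows), 1 point per gene. *BSG*, *CTSB*, *SPOCK2* and *A2M* stand highest, from 5140 to 27640, and *CTSS* stands lowest at 2.59.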

How the data were processed

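Poly(A) RNA libraries of the 18 samples were sequenced. The authors aligned reads to hg38 with STAR 2.7.2d, counted them per gene with GENCODE v32 and normalized the counts with DESeq2 1.34.0, per the submitters' processing notes and the study's methods. The strand setting of the counting is not given in the sources used here. The deposited table holds the authors' mean normalized count, a signal averaged over all 18 samples, which was the same at the 3 times to a relative gap of 4.89e-07, and was used as deposited. Its other columns are the authors' own comparisons of LN411 with FN (the log2 fold change with its standard error, the Wald statistic and p-values before and after adjustment), and were not used. Values per sample were not used, so the depth of the libraries and the error of each level are unknown, and no statistical test was run.

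Lengths and positions came from GENCODE v44 on GRCh38, matched by Ensembl identifier for 99.6% of 21944 genes and for all 51 members. Levels were divided by the length of the longest transcript in kb. The level thresholds were 10, 100 and 1000. Genes at 1000 or above were described singly, with the 3 highest and the lowest of each family per kb and all TIMP genes, and further genes were named after their values were seen, as were the groups by known role. The members and lists were chosen with earlier results of these data known. A gene first listed with the other matrix proteolysis genes was left out of that list and is not reported here, and those of the list not named in the text are covered by its counts. The calculation of family shares was run on simulated levels with known shares. Those shares were made by the same formula, so their recovery was fixed in advance and tests neither the lengths nor the annotation. Coding lengths and protein-coding genes were taken from GENCODE in place of the RefSeq proteins first planned, and the planned comparisons of protein sequence were not run. Calculations used Python 3.11.15, numpy 2.4.6 and pandas 2.3.3.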

Additional observations from a re-analysis of the deposited data

How the results depend on the processing

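A value was taken as kept when it moved by no more than 1.5 times, since the levels have no replicate error. Without division by length, the share of the summed level was 36.3% for ADAM genes and 5.87% for TIMP genes. With coding length, it was 7.02% for ADAMTS and 17.3% for TIMP genes. The other shares were kept with coding length, merged exons, no length or members at 100 or above. With a threshold of 1000, 37.3% of the members passed, against 36.3% of all genes and 51.3% of protein-coding genes. At 10, 94.1% of the members and 88.1% of all genes passed. A share cannot exceed 100%, so that of the members could not move by over 1.5 times at 10, which makes this no check of it. Among genes listed at all 3 times, the shares at 100 were kept, with 73.5% of the members and 70.2% of all genes. The median of all genes was 625 among genes listed at all 3 times and 1077 among protein-coding genes, whereas that of the members was 606 at all 3 times. Of the 19 members at 1000 or above, 13 moved by over 1.5 times per kb with coding length and 3 with merged exons. The 5 highest members per kb were the same with merged exons, and 4 of 5 with coding length. The 10 highest members per kb were the same with merged exons, and 8 of 10 with coding length. No paired analysis was possible because values per sample were not used, and leaving out replicates was not run for the same reason. The comparison by zinc motif was not run, as no protein sequences were used.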
